A study of Mus musculus with 12 samples.

Results

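T and NK cell genes were examined across the 4 groups of a mouse wound experiment. Members were found by gene name: the gene tables hold 55487 genes, and the 10 members are Cd3d, Cd3e, Cd3g, Cd4, Cd8a, Gzma, Gzmb, Prf1, Nkg7 and Klrd1. All 10 were found once in every table. RNA was sequenced from cutaneous wounds of male C57BL/6JNarl mice, 6 weeks old and of no engineered genotype named in the labels, which received a pair of full-thickness punch wounds of 6 mm on the back. Sham wounds were given 200 µL of Pluronic F127, a gel of 25% in saline, once a day. CAP wounds were given the same volume of gel with 10 µM capsaicin, the pungent compound of chili peppers. Wounds were taken at day 3 or day 6, which makes 4 groups (sham and CAP at each day) with 3 libraries each. Every group shares the wound and the gel, and no unwounded skin is part of the comparisons. Whether libraries come from separate mice is not given.

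T cells recognise antigen through a T cell receptor whose signal is carried by the CD3 chains. The co-receptors CD4 and CD8 mark helper and cytotoxic T cells, while NK cells lack this receptor and use receptors of the killer cell lectin family. Cytotoxic T cells and NK cells kill through granules that hold perforin, which opens the target membrane, and granzymes, which enter and cleave proteins of the target. Mouse epidermis is known for a resident gamma delta T cell, the dendritic epidermal T cell, which takes part in wound repair.

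The values are TPM, a level per transcript length set relative to the total of each library, so the members can be compared with each other on this scale. TPM keeps no read depth, which is therefore unknown. At 0.3 TPM or more, the libraries held 18533 to 19325 genes, and libraries of the same group correlated at r of 0.953 to 0.978 over genes (12 pairs). Replicate 2 of CAP at day 6 stood apart from the rest: it had the lowest Ptprc, the common leukocyte antigen CD45 (26.3 TPM against 50.3 to 86.8 in the other 11 libraries), and the highest Krt10, a keratin of the upper epidermis (40801 TPM against 4187 to 19544). The tissue was bulk skin, so fewer cells of a type and less RNA per cell cannot be told apart. Past the threshold means, for every gene here, an unadjusted limma p under 0.05 together with a difference of at least 2-fold on the scale log2(TPM + 0.1), which understates the change of low genes. The p printed beside a difference carries the Benjamini-Hochberg adjustment, made across every gene tested.

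All but one of the members were measured above the filter of 0.3 TPM in every group, and 9 of 10 were therefore tested in each comparison. In sham wounds at day 3 the level order was Cd4 (7.87 ± 1.79 TPM, SD, n = 3), Cd3g, Gzma, Cd3e, Klrd1, Nkg7, Gzmb, Prf1, Cd3d and Cd8a (0.162 ± 0.108). Neighbours from Cd4 down to Gzmb had overlapping ranges, while Prf1, Cd3d and Cd8a each lay below all libraries of the gene before them. In CAP wounds at day 3 the order was Cd3g, Cd4, Cd3e, Nkg7, Klrd1, Prf1, Gzma, Gzmb, Cd3d and Cd8a, with a gap between Cd3e and Nkg7 where the ranges did not overlap. At day 6 Cd4 led in both groups, above every library of Cd3g in each. Cd3d and Cd8a were last in all 4 groups.

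**Figure D1:**
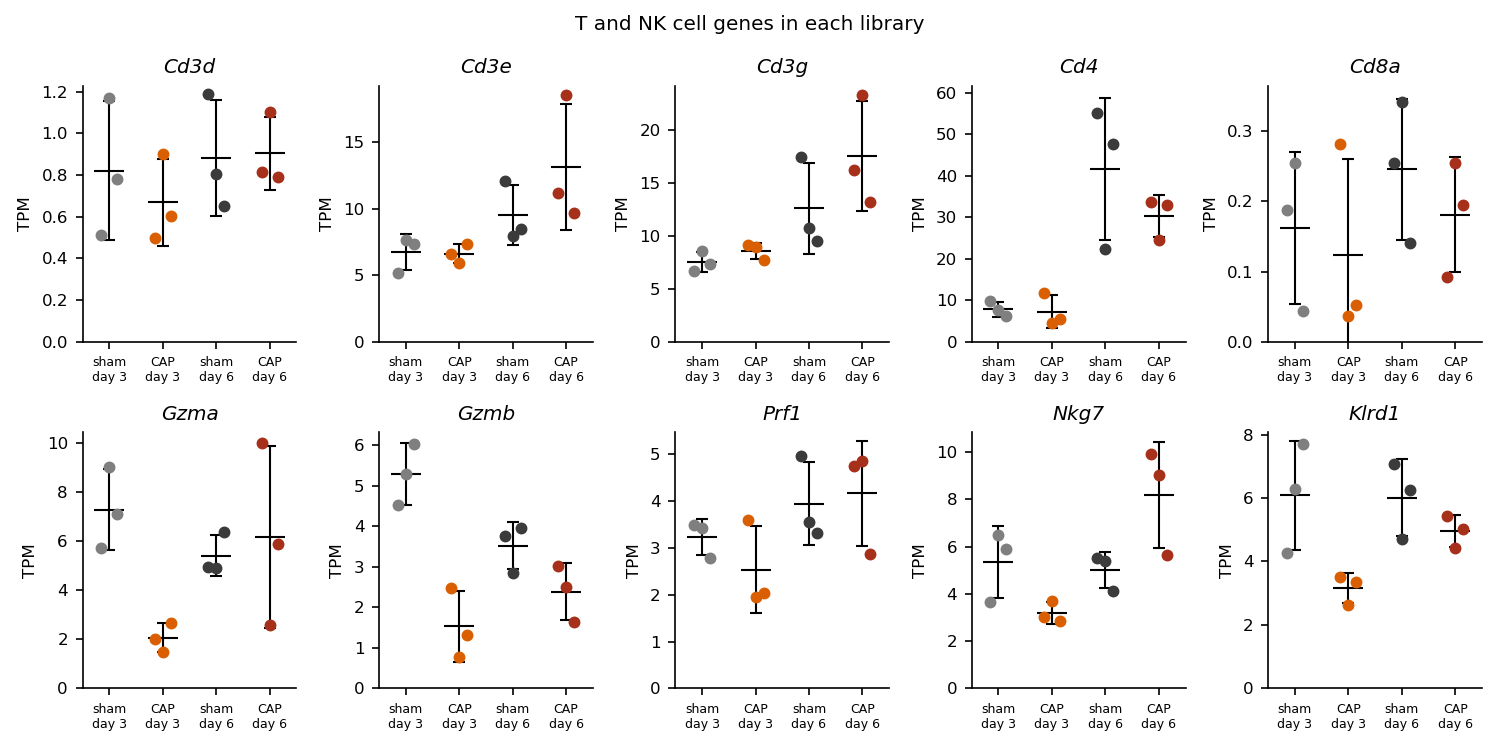
TPM of the 10 T and NK cell genes in each library (points, 3 per group; vertical axes start at 0 and differ between genes) with the group mean and SD (horizontal mark and bars, clipped at 0). Gzma and Gzmb sit low in the 3 CAP libraries of day 3, and Cd4 is high in all 6 libraries of day 6.

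The CD3 genes did not differ between CAP and sham wounds at day 3 beyond the spread between libraries. Cd3e encodes the epsilon chain and lies at chr9:44998740-45009627 on the minus strand (GRCm38). It read 5.18, 7.65 and 7.39 TPM in the 3 sham libraries and 6.62, 5.95 and 7.34 TPM in the 3 CAP libraries, and the log2 difference was -0.01 (SE 0.19, adjusted p = 0.998). An antisense gene, Gm48719, and an unclassified gene model on the same strand, Gm48720, overlap Cd3e, so part of its signal could belong to them. Cd3g, the gamma chain at chr9:44969572-44980431 (minus strand), read 6.66, 8.54 and 7.35 TPM in sham and 9.15, 8.91 and 7.69 TPM in CAP wounds. Its groups overlapped, with a log2 difference of 0.19 (SE 0.14, adjusted p = 0.878). Cd3d, the delta chain at chr9:44981786-44987339 (plus strand), stayed between 0.500 and 1.19 TPM in all 12 libraries and passed no test in any comparison. Its level was 0.0595 to 0.153 times that of Cd3e, although the chains are used together in 1 receptor complex.

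Gzma and Gzmb were lower in CAP wounds at day 3. Gzma encodes granzyme A, a trypsin-like protease of cytotoxic granules, and lies at chr13:113093825-113100981 on the minus strand. It read 5.71, 9.02 and 7.11 TPM in the sham libraries against 2.02, 1.5 and 2.68 TPM in the CAP libraries. The highest CAP library was below the lowest sham library, the log2 difference was -1.78 (SE 0.26), a 3.44-fold fall. Gzmb, at chr14:56258838-56262260 on the minus strand, encodes granzyme B, which cleaves after aspartate and starts apoptosis of the target cell. It read 4.51, 5.30 and 6.04 TPM in sham and 2.48, 0.783 and 1.33 TPM in CAP wounds. These groups did not overlap either, with a log2 difference of -1.85 (SE 0.39), a 3.61-fold fall. Both granzymes were past the threshold. The adjusted p over all 18330 genes tested was 0.500 for each, and the exact permutation test (2-sided) gave 0.1, the smallest p that 3 against 3 libraries allow.

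Klrd1, Nkg7 and Prf1 had negative differences of less than 2-fold. Klrd1 encodes CD94, the partner chain of the NKG2 receptors on NK cells, and lies at chr6:129591782-129598775 (plus strand). It read 4.26, 6.28 and 7.70 TPM in sham and 3.51, 2.64 and 3.36 TPM in CAP wounds, and the groups did not overlap. The log2 difference was -0.89 (SE 0.25, adjusted p = 0.568). It was past 2-fold only without replicate 1 of sham at day 3, where it was -1.12. Nkg7, a granule membrane protein gene at chr7:43437073-43438249 (plus strand), read 3.64, 6.5 and 5.90 TPM in sham and 3.01, 3.71 and 2.84 TPM in CAP wounds. Its groups overlapped by 1 CAP library, and the log2 difference was -0.70 (SE 0.25, adjusted p = 0.713). Prf1, the perforin gene at chr10:61297833-61304680 (plus strand), read 3.49, 3.42 and 2.78 TPM in sham and 3.61, 1.95 and 2.04 TPM in CAP wounds. The CAP library with the highest Prf1, replicate 1, lay above all sham libraries, and the log2 difference was -0.39 (SE 0.27, adjusted p = 0.865).

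Counted over the members tested at day 3, 2 of 9 were past the threshold and both were lower in CAP wounds, where 1.16% of all genes tested were lower by the same rule. Groups did not overlap for 3 of 9 members (Gzma, Gzmb and Klrd1), all lower, against 8.75% of all genes. The median log2 difference of the 9 members was -0.39, and that of all genes was -0.05. Summed per library, Gzma, Gzmb, Prf1, Nkg7 and Klrd1 gave 21.6 to 30.5 TPM in sham wounds and 10.6 to 14.6 TPM in CAP wounds at day 3. The sum of the 3 CD3 genes was 12.3 to 17.4 TPM in sham and 15.6 to 16.3 TPM in CAP wounds, so the latter lay inside the sham range. Within the same libraries, Klrd1 was 0.820 to 1.04 times Cd3e in sham and 0.443 to 0.530 times Cd3e in CAP wounds.

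**Figure D2:**
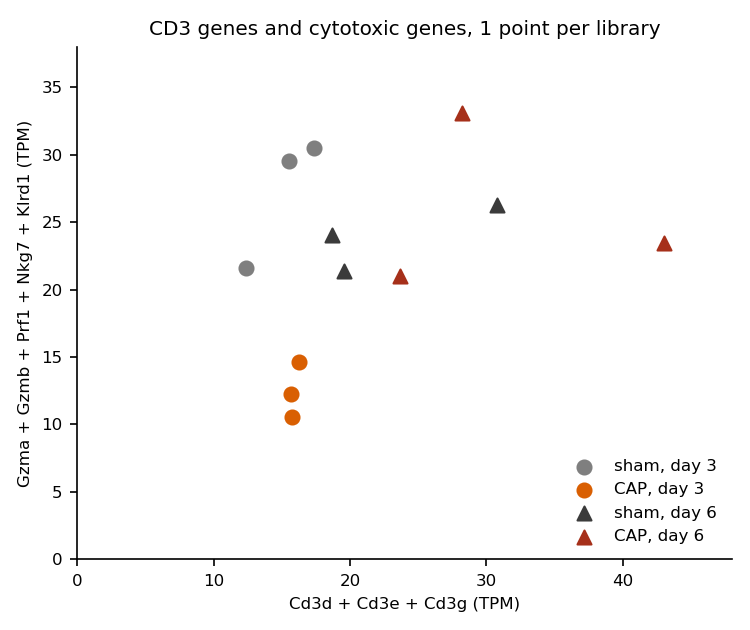
Summed TPM of Gzma, Gzmb, Prf1, Nkg7 and Klrd1 (vertical axis) against summed TPM of Cd3d, Cd3e and Cd3g (horizontal axis), 1 point per library, with circles for day 3 and triangles for day 6. The 3 CAP libraries of day 3 lie at 10.6 to 14.6 TPM on the vertical axis, below the other 9 libraries, while their CD3 sum of 15.6 to 16.3 TPM is within the range of sham at day 3.

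The start regions of the granule genes are shown because Gzma and Gzmb were past the threshold at day 3. A link between these regions and the differences was not tested. RefSeq entries (GRCm38.p6) were found for 8 of the 10 members, without Cd4 and Klrd1, and the 250 bases before each start were searched on both strands for TGTGGT, the core that Runx factors bind. The core or its complement ACCACA was present before Gzma, Gzmb, Prf1 and Nkg7 and not in the windows of Cd3d, Cd3e, Cd3g and Cd8a. Of 27025 windows of the same length, 14.2% held it. Matches are in capitals in the sequences of Gzma and Gzmb, which passed the threshold, of Prf1, which did not, and of Cd3g, which has no match.
Gzma (chr13:113100982-113101231, minus strand): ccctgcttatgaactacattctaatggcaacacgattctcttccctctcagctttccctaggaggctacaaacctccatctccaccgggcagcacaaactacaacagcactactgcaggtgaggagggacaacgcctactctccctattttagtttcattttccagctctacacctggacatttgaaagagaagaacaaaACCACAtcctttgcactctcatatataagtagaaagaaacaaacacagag
Gzmb (chr14:56262335-56262584, minus strand): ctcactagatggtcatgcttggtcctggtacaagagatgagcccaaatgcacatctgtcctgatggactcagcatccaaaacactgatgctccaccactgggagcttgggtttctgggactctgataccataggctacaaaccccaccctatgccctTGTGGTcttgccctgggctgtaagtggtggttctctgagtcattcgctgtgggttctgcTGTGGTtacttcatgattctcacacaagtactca
Prf1 (chr10:61297586-61297835, plus strand): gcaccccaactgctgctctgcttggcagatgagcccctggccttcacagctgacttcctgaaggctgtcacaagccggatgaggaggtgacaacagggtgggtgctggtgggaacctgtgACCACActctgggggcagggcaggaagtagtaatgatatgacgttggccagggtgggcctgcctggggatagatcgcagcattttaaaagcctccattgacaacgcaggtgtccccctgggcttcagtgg
Cd3g (chr9:44980432-44980681, minus strand): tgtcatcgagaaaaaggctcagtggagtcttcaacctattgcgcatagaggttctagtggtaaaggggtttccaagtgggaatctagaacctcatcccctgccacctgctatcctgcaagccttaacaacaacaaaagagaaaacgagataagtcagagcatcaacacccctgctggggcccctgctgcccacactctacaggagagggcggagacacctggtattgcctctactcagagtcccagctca
In Gzmb the core occurred at 2 places, starting 93 and 34 bases before the RefSeq start, and in Gzma and Prf1 at 1 place each, 50 and 130 bases before it. RefSeq starts can differ from the gene positions given here. The Gzmb window lies beyond the gene end at 56262260 without touching it. The Nkg7 window ends at 43437137, past the gene start at 43437073. The same windows were searched for GGAAGT (an ETS core, in 20% of all windows), TCACAC (a T-box core, 12.2%), TGACGT (a CRE core, 6.56%) and CANNTG (an E-box, 66%). GGAAGT was found before Cd3d, Cd3e and Prf1, TCACAC before Gzmb and Nkg7, TGACGT before Cd3e and Prf1, and CANNTG in all 8 windows. In Cd3e, TGACGT and CANNTG overlap. A match of letters does not show that a factor binds there.

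Related genes fixed in lists gave the following counts for CAP against sham at day 3. A gene was tested only with a mean of 0.3 TPM or more in both groups. Low genes that were under 0.3 TPM in CAP wounds alone are therefore missing from the counts and medians. No listed gene was missing through sham wounds alone. Of 21 NK receptors and cytotoxic effectors, 11 were tested, 2 were lower and 0 higher, with a median log2 difference of -0.77. Eomes, Tbx21, Fasl and Txk were not tested because only their CAP mean was under 0.3 TPM. Eomes read 0.683, 0.679 and 1.32 TPM in sham and 0.343, 0.163 and 0.284 TPM in CAP wounds. Means of Tbx21, Fasl and Txk were 0.544, 0.393 and 0.379 TPM in sham and 0.251, 0.166 and 0.185 TPM in CAP wounds. Ncr1, which encodes the NK receptor NKp46, read 2.09, 1.58 and 2.79 TPM in sham and 0.665, 0.567 and 0.776 TPM in CAP wounds (log2 difference -1.52, SE 0.29, adjusted p = 0.500). Klrc1, the NKG2A chain that pairs with the Klrd1 product, was also lower at -1.07 (SE 0.30), and Il2rb, a receptor chain for IL-2 and IL-15, was at -0.77 (SE 0.18) without reaching 2-fold. The other granzymes tested did not pass, with Gzmc at -0.79 (SE 0.52) and Gzmm at 0.20 (SE 0.41). Of 20 genes of the T cell receptor complex and its signalling, 15 were tested and 2 were lower, with a list median of -0.15. They were Trac, the alpha constant region, at -1.34 (SE 0.40) and the adhesion receptor gene Cd2 at -1.01 (SE 0.36). Cd6 and Cd8b1 were under 0.3 TPM in CAP wounds alone, with means of 0.306 and 0.356 TPM in sham and 0.153 and 0.0351 TPM in CAP wounds. Of 12 gamma delta T cell genes, 9 were tested and 0 passed, with a median of 0.04. The smallest p was that of Sox13, a transcription factor gene on this list. It read 9.31, 10.1 and 13.3 TPM in sham and 7.73, 5.32 and 7.08 TPM in CAP wounds. Its groups did not overlap, and the log2 difference of -0.69 (SE 0.20, adjusted p = 0.583) was under 2-fold. Trgc1 was at -0.13 (SE 0.17) and Trgv5, a variable segment used by dendritic epidermal T cells, at 0.33 (SE 0.21), and neither passed. Trdc, the delta constant region, was at 0.09 (SE 0.20). It read 2.52, 3.81 and 2.95 TPM in sham wounds, below every sham library of Sox13. Which cells of the skin the Sox13 signal came from was not tested.

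Of 6 regulatory T cell genes, 5 were tested and Il2ra was lower at -1.09 (SE 0.36). The gene not tested was Foxp3, a defining marker of these cells, whose mean was under 0.3 TPM in CAP wounds alone. It read 0.422, 0.520 and 0.215 TPM in sham and 0.254, 0.0555 and 0.0875 TPM in CAP wounds. Of 13 chemokines, receptors and cytokines of T and NK cells, 9 were tested and 3 were lower, with a median of -0.89. They were Cxcl9 at -1.52 (SE 0.27), Cxcl10 at -1.30 (SE 0.53) and Ccl5 at -1.09 (SE 0.43), ligands that draw in activated T and NK cells. Il12b of this list was not tested either, with a mean of 0.413 TPM in sham and 0.116 TPM in CAP wounds. The Benjamini-Hochberg adjusted p was 0.500 or more for every gene of these lists tested at day 3. Gzmd, Gzme and Il21 were listed at 0 in all 12 libraries.

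Markers of other cells were read beside these values. The pan-leukocyte genes Ptprc, Coro1a and Cd53 were at -0.21 (SE 0.22), -0.29 (SE 0.19) and 0.35 (SE 0.32) at day 3, and 0 of 3 passed. All 6 dendritic cell genes tested were negative, from -0.94 to -0.37, with 0 past the threshold, and their summed level was 18.7 to 24.2 TPM in sham and 9.80 to 16.9 TPM in CAP wounds. Of 6 monocyte and macrophage genes, Ccr2, a monocyte receptor, was lower at -1.33 (SE 0.22), and the other 5 did not pass. All 5 erythroid genes were higher, at 2.06 to 2.18, with sums of 514.1 to 753.1 TPM in sham and 2356 to 2803 TPM in CAP wounds. Among B cell genes 2 of 5 were tested and 0 passed. Ighm, the IgM heavy chain gene, read 31, 40.5 and 45.4 TPM in sham and 27.1, 16.1 and 19.2 TPM in CAP wounds without overlap (-0.92, SE 0.22, adjusted p = 0.522), and the summed level of the list was 33.2 to 47.5 TPM in sham and 18.1 to 29.3 TPM in CAP wounds. Cd79b was at -0.25 (SE 0.21), and the defining marker Ms4a1 lay between 0 and 0.133 TPM in all libraries. Mast cell, neutrophil and keratinocyte lists had 0 genes past the threshold at day 3, as did 3 fibroblast genes. The part of these cells in the lower granzyme values was not tested.

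At day 6, no member was past the threshold for CAP against sham (0 of 9 by limma), where 1.46% of all genes tested were higher and 2.34% lower. At an unadjusted p under 0.05 alone, 1 member remained, Nkg7, which read 5.50, 5.39 and 4.13 TPM in sham and 9.91, 9.04 and 5.66 TPM in CAP wounds. Every CAP library was above every sham library, as for 8.01% of all genes, with a log2 difference of 0.67 (SE 0.25, adjusted p = 0.234). Gzma did not separate the groups: it read 4.94, 4.89 and 6.37 TPM in sham and 9.99, 2.59 and 5.86 TPM in CAP wounds, with the CAP libraries both highest and lowest. Gzmb read 3.76, 2.86 and 3.95 TPM in sham and 3.03, 2.50 and 1.63 TPM in CAP wounds, a log2 difference of -0.57 (SE 0.28, adjusted p = 0.302). Cd3e and Cd3g were at 0.43 (SE 0.28) and 0.49 (SE 0.29), and at 0.16 and 0.26 without replicate 2 of CAP, which had the highest value of both (18.6 and 23.3 TPM).

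The median of the 9 members at day 6 was 0.06 and that of all genes -0.12. When the libraries were rescaled by the median ratio of their genes, the median of all genes moved to -0.02, and the calls over all genes went from 268 higher and 429 lower to 386 higher and 308 lower. Nkg7 was then at 0.78 and Gzmb at -0.47. Of the 15 T cell receptor and signalling genes tested, Cd5, a T cell surface receptor gene, was higher at 1.26 (SE 0.43), and of 14 NK genes tested 0 passed. Klrc1 came nearest at -0.95 (SE 0.26). Gamma delta (9 tested) and regulatory T cell genes (6 tested) had 0 past the threshold, and of 10 chemokines, receptors and cytokines Il18, an interferon gamma inducing cytokine, was higher at 1.09 (SE 0.21) and Cxcl10 lower at -1.75 (SE 0.59). Pan-leukocyte genes were at -0.79 to -0.74 with 0 of 3 past the threshold, while the keratins Krt1 and Krt10 of the upper epidermis were higher at 1.86 (SE 0.37) and 1.62 (SE 0.38). The part of these shifts in tissue makeup in the day 6 values was not tested.

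**Figure D3:**
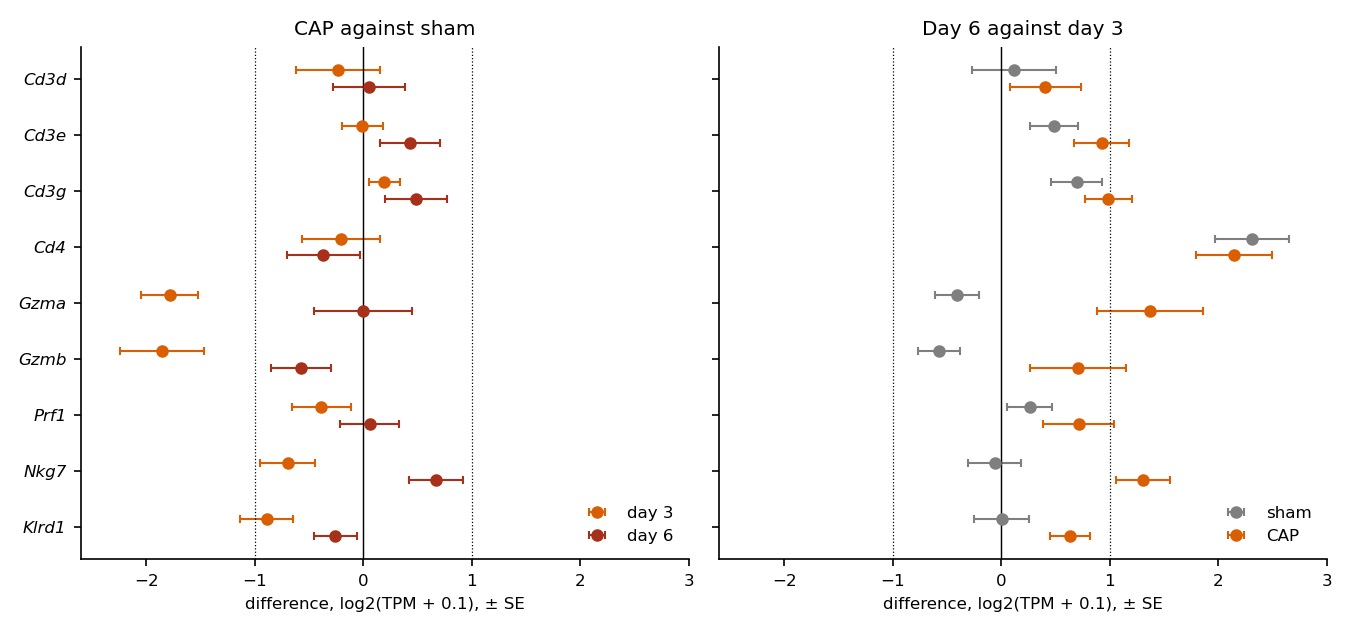
Log2 differences with SE of the 9 members tested (horizontal axis, log2(TPM + 0.1); dotted lines mark 2-fold), for CAP against sham at day 3 and day 6 (left) and for day 6 against day 3 in sham and CAP wounds (right). Gzma and Gzmb lie at -1.78 and -1.85 at day 3 on the left, and Cd4 at 2.31 and 2.15 on the right.

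The change in the CAP effect between the days was tested as its own term. Of 9 members, 3 were past the threshold, all with a higher CAP effect at day 6 than at day 3, where 2.18% of all genes were. The difference was 1.78 for Gzma (SE 0.57), 1.28 for Gzmb (SE 0.50) and 1.37 for Nkg7 (SE 0.37). The Benjamini-Hochberg adjusted p from limma was 0.428 for each. Gzmb dropped under 2-fold or p 0.05 when any 1 of 5 libraries was left out (replicate 3 of sham at day 3, replicate 2 of CAP at day 3, replicate 2 of sham at day 6, and replicates 1 and 2 of CAP at day 6), with values of 0.91 to 1.22. For Nkg7 the sign of the CAP difference turned between the days, from -0.70 to 0.67. Among related genes, Ncr1 (1.47, SE 0.48), Trac (1.28, SE 0.52), Cd2 (1.12, SE 0.50), Cxcl9 (1.24, SE 0.39) and Il18 (1.41, SE 0.29) also passed this test, upwards. Of these, Il18 read 48.5 to 142 TPM over the libraries. It was highest in replicate 2 of CAP at day 6, the library with the highest Krt10, and the cells it came from were not tested. Cd8b1 was at 1.77 (SE 0.69), with 0.548 TPM or less in every library. It met the filter of 0.3 TPM only through sham at day 3 (mean 0.356 TPM). Its other group means were 0.0351 to 0.178 TPM, so it is not counted with the related genes that passed. Markers of other cells passed this test as well: all 5 erythroid genes at -3.34 to -3.19, Krt1 at 1.93 (SE 0.62), Krt10 at 1.65 (SE 0.56), Ighm at 1.44 (SE 0.41), Cd53 at -1.11 (SE 0.49) and Lyz2 at -1.15 (SE 0.51). Their part in the change of the member genes was not tested.

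Averaged over both days, Gzmb was the member past the threshold (1 of 9, lower; 1.4% of all genes). Its mean CAP effect was -1.21 (SE 0.25), with an adjusted p of 0.128 from limma and an exact permutation p of 0.010 within days, where 0.005 is the smallest possible. Klrd1 was at -0.57 (SE 0.16, adjusted p = 0.155, exact permutation p = 0.015) and Gzma at -0.89 (SE 0.28, adjusted p = 0.179, exact permutation p = 0.055), both under 2-fold. Without replicate 1 of CAP at day 6, Gzma was past the threshold at -1.12. Klrc1 from the NK list was lower at -1.01 (SE 0.19), and the chemokine gene Cxcl10 at -1.52 (SE 0.44).

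**Figure D4:**
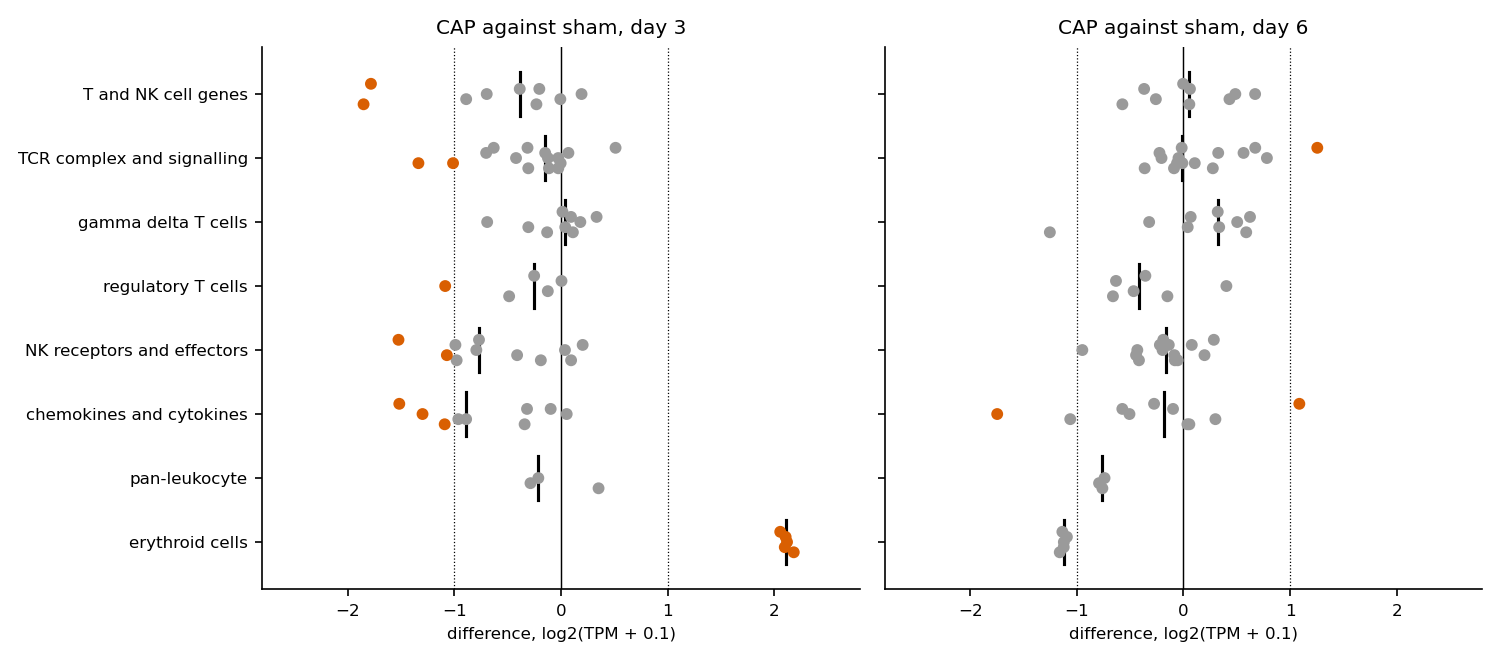
Log2 differences of CAP against sham at day 3 (left) and day 6 (right) for each gene tested of the T and NK cell genes, 5 related lists and 2 marker lists (1 point per gene, orange where past the threshold, black bar at the list median, dotted lines at 2-fold). At day 3 the NK list has its median at -0.77 and the gamma delta list at 0.04, and at day 6 they are at -0.16 and 0.32.

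From day 3 to day 6 the member that changed most was Cd4, the helper co-receptor gene at chr6:124864692-124888221 (minus strand). In sham wounds it read 9.75, 7.68 and 6.19 TPM at day 3 and 55.1, 22.3 and 47.7 TPM at day 6. In CAP wounds it read 11.7, 4.57 and 5.61 TPM at day 3 and 33.8, 24.5 and 32.9 TPM at day 6. All 6 libraries of day 6 were above all 6 of day 3. The log2 difference was 2.31 in sham (SE 0.34, adjusted p = 0.0249 by limma) and 2.15 in CAP wounds (SE 0.35, adjusted p = 0.25). The sham value was the only adjusted p under 0.05 of any member in any comparison; over the alternatives it ran from 0.0176 to 0.102, and it was above 0.05 without filter (0.0751), in the joint fit (0.0926) and without replicate 2 of sham at day 3 (0.08), replicate 3 of sham at day 3 (0.102), replicate 1 of sham at day 6 (0.0593) or replicate 3 of sham at day 6 (0.0964). The change of the CAP effect between days was -0.17 for Cd4 (SE 0.54).

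Cd4 was also set against the CD3 genes within each library. The ratio of Cd4 to Cd3e within a library was 1.24 ± 0.562 (SD, n = 3) in sham wounds at day 3 and 4.33 ± 1.44 at day 6, and 1.10 ± 0.580 and 2.57 ± 1.10 in CAP wounds. In sham wounds Cd3e read 12.1, 7.99 and 8.45 TPM and Cd3g 17.5, 10.8 and 9.54 TPM at day 6. Both were above all day 3 libraries, with log2 differences of 0.49 (SE 0.22, adjusted p = 0.342) and 0.69 (SE 0.23, adjusted p = 0.205), under 2-fold. Trac, of the alpha beta receptor, stayed between 1.30 and 2.68 TPM in sham wounds over both days. Besides helper T cells, CD4 is known on some mouse monocytes, macrophages and dendritic cells. Of 6 monocyte and macrophage genes, 5 were positive in sham from day 3 to day 6, with a median of 0.28. Lyz2 was at 0.99 (SE 0.22), Cd14 at 0.58 (SE 0.27) and Ccr2, the negative one, at -0.62 (SE 0.22). Of 6 dendritic cell genes tested, 2 were positive, with Cd209a at 0.35 (SE 0.30), and the list median was -0.14. No gene of these lists was past the threshold. Other marker lists moved in the same sham comparison: all 5 erythroid genes were higher at 2.33 to 2.41 (adjusted p of 0.0227 to 0.0363), and all 5 mast cell genes were positive at 0.33 to 0.81, with 0 past the threshold. In CAP wounds, where Cd4 was also higher, the erythroid genes were at -0.96 to -0.83 and the mast cell genes at 0.49 to 0.85, with 0 past the threshold in either list. There 1 of the 6 monocyte and macrophage genes was positive (median -0.35), and 5 of the 6 dendritic cell genes were (median 0.55), again with 0 past the threshold. The part of cells other than T cells in the higher Cd4 was not tested.

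In sham wounds 1 of 9 members, Cd4, was higher past the threshold at day 6, against 2.13% of all genes. Groups did not overlap upwards for 3 of 9 members (Cd3e, Cd3g and Cd4), against 10.8% of all genes, and downwards for 1, Gzmb, against 10.6%. Gzmb went from 5.28 ± 0.762 TPM to 3.52 ± 0.585 TPM (SD, n = 3), a log2 difference of -0.57 (SE 0.19, adjusted p = 0.201) that is under 2-fold. Gzma was at -0.41 (SE 0.20), Prf1 at 0.26 (SE 0.21), and Nkg7 and Klrd1 at -0.06 (SE 0.25) and 0.00 (SE 0.25), so their day 3 and day 6 libraries overlapped. The related lists had Cd28, a co-stimulatory receptor gene, higher at 1.03 (SE 0.35; 1 of 16 T cell receptor and signalling genes tested) and Trgc2 higher at 1.13 (SE 0.47; 1 of 9 gamma delta genes). The NK list (14 tested), the regulatory list (6) and the chemokine list (10) had 0 past the threshold.

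In CAP wounds all 9 members tested were at a higher mean log2 level at day 6 than at day 3. Past the threshold were 3 of 9, against 1.27% of all genes: Cd4 (above), Gzma at 1.37 (SE 0.49, adjusted p = 0.38) and Nkg7 at 1.31 (SE 0.25, adjusted p = 0.29). The median of the 9 was 0.93, and that of all genes was -0.05. Groups did not overlap upwards for 5 of 9 members (Cd3e, Cd3g, Cd4, Nkg7 and Klrd1), against 8.05% of all genes. Cd3e went from 6.64 ± 0.694 to 13.2 ± 4.74 TPM and Cd3g from 8.58 ± 0.787 to 17.6 ± 5.2 TPM (SD, n = 3), with log2 differences of 0.93 (SE 0.25, adjusted p = 0.316) and 0.99 (SE 0.22, adjusted p = 0.295) that stopped short of 2-fold. Without replicate 2 of CAP at day 6, the library with most epidermal keratin, they were at 0.65 and 0.76. Both passed 2-fold without replicate 1 (1.01 and 1.03) or replicate 3 (1.12 and 1.17) of CAP at day 6, and Cd3g also without replicate 1 (1.04) or replicate 2 (1.02) of CAP at day 3. The Gzma call was lost without replicates 1 or 2 of CAP at day 3 (1.37 and 1.17) or replicates 1 or 3 of CAP at day 6 (0.93 and 1.30), and without replicate 1 of CAP at day 3 Gzmb passed at 1.11.

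Among related genes in CAP wounds, 3 of 9 gamma delta genes tested were higher at day 6. They were Trgv5 at 1.16 (SE 0.35), Trgc1 at 1.28 (SE 0.28) and Trgc2 at 1.77 (SE 0.45). Trgv5 read 7.92, 4.77 and 5.2 TPM at day 3 and 11.5, 21.5 and 9.17 TPM at day 6, again highest in replicate 2. Of the T cell receptor and signalling genes 2 of 15 were higher, Cd28 at 1.29 (SE 0.28) and Trac at 1.06 (SE 0.40), of the NK genes 1 of 11, Ncr1 at 1.05 (SE 0.34), and of the chemokine list 1 of 9, Il18 at 1.03 (SE 0.23). The regulatory list had 0 of 5. Pan-leukocyte genes went the other way, at -0.70 to -0.29, with 0 of 3 past the threshold, and Krt1 and Krt10 were higher at 1.90 (SE 0.45) and 1.76 (SE 0.41).

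Cd8a, the CD8 alpha chain gene at chr6:71373427-71379173 (plus strand), was the member under the filter. It lay between 0.0372 and 0.341 TPM in the 12 libraries, at 0.00586 to 0.0427 times the level of Cd3e. No difference between groups was detectable at these levels. The T cell genes present in all libraries at more than 1 TPM thus included Cd3e, Cd3g, Cd4, Trbc2 (11.7 to 38.3 TPM), Trdc (2.52 to 7.66 TPM) and Trdv4, the delta segment of dendritic epidermal T cells (10.5 to 36.5 TPM).

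The genes most like the members over the 12 libraries were named by Pearson r of log2(TPM + 0.1) among 16161 genes averaging 1 TPM or more. With the mean of the CD3 genes, each put on a common scale, the 10 highest were Gm15427 (0.94), Trdc (0.93), Cd7 (0.92), Rps7, Tesc, Trgc1 (0.91), Rps9, Sft2d2, Slc24a3 and Slurp2 (0.89). With that of the granule and NK genes they were Il2rb (0.96), P2ry10 (0.94), 9330159M07Rik, Slc1a4, Pi16, Septin1, Klrb1b (0.90), Cd74, Cd209f and 8430429K09Rik (0.88). With Cd4, a pattern added after its values were seen, they were Ctsf (0.94), Vgll3, Fchsd2, Epor, Gas6, Gtf2i, Gcsam, Postn, Fbln5 and Chp2 (0.91). Some marker genes, picked by hand and not by whole lists, were also set against Cd4. The mast cell protease genes Cma1, Mcpt4, Cpa3 and Tpsb2 were at 0.87, 0.84, 0.81 and 0.68. The T cell genes Cd3e and Trac were at 0.65 and 0.37. Of the macrophage and dendritic cell genes picked, Csf1r was at 0.69, Cd209a at 0.67, Lyz2 at 0.36 and Flt3 at 0.32. The other genes of these lists were not set against Cd4, so the values do not describe the lists. Among those left out was Ccr2, with means of 92.2 TPM at day 3 and 61.1 TPM at day 6 in sham wounds. In CAP wounds its means were 37.2 and 31.8 TPM. The libraries share group and tissue makeup, so these values describe likeness only.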

How the data were processed

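The 12 wound libraries came from the SureSelect XT HS2 mRNA kit of Agilent. The submitters' processing notes name bcl2fastq, Trimmomatic 0.36 and build mm10, and expression was estimated by the authors with StringTie. The deposited values are TPM, per transcript length and relative to the library total, with 0.0001 in place of 0, and 0 other sample columns were left unused. Read depth is unknown, so counting error could not be given.

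Groups followed the labels, 3 libraries each. Genes averaging 0.3 TPM or more in both groups compared (in 1 or more of the 4 groups, for the mean and the change of the CAP effect) were fitted as log2(TPM + 0.1), computed from the deposited TPM, with limma 3.58.1 (trend, not robust) in R 4.3.3, and p was adjusted by Benjamini-Hochberg over all genes tested. The threshold, unadjusted p under 0.05 and at least 2-fold, is that of the study. Exact permutation tests were 2-sided. All p-values measure only the spread between these libraries, which may share mice. The fit was tested on simulated data. Tables were read with Python 3.11.15, numpy 2.4.6 and pandas 2.3.3, and figures drawn with matplotlib 3.10.9.

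Named were all members, and of each list the genes past the threshold or, with fewer than 3, those with the smallest p, plus the likeness lists. Members and lists were chosen with earlier results of these data known. Alternatives were a pseudocount of 1 TPM, no filter, median-ratio scaling, a replicate block, a joint fit and leaving out each library. Start sequences are from RefSeq (GRCm38.p6), and gene positions are those of the files (GRCm38), the same in GENCODE M21.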

Additional observations from a re-analysis of the deposited data

Results flagged for a closer look

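The CAP effect differed between day 3 and day 6 for 3 members, by the limma test of the difference itself at the unadjusted threshold. The change was 1.78 for Gzma, 1.28 for Gzmb and 1.37 for Nkg7 on the log2 scale, and the adjusted p was 0.428 for each.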

How the results depend on the processing

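With 3 libraries per group and unknown depth, a difference that missed the threshold cannot be read as absent. The members past the threshold (Gzma and Gzmb at day 3, Cd4, Gzma and Nkg7 between days, Gzmb for the mean effect, and Gzma, Gzmb and Nkg7 for its change) kept their direction under every alternative run. A pseudocount of 1 TPM gave 154 genes past the threshold in place of 290 for CAP against sham at day 3, 385 in place of 697 at day 6, 405 in place of 688 for the days in sham, 299 in place of 507 for the days in CAP wounds, 77 in place of 380 for the mean CAP effect and 580 in place of 994 for its change. It left 0 members in place of 1 for the mean effect, with Gzmb at -0.896, and put the change of Gzmb at 0.929. Without filter, where more genes were tested, 568, 1156 and 842 genes passed at day 3 and for the days in sham and CAP wounds. Values near 0 turned sign: with a pseudocount of 1 TPM Gzma at day 6 (0.0231) and the mean effect of Nkg7 (0.00746), and with median-ratio scaling Cd3e at day 3 (0.0477), Gzma at day 6 (0.0999), Klrd1 between days in sham (-0.000712) and the mean effect of Nkg7 (0.0666). The cause of these shifts was not tested.

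Leaving out each library in turn gave 204 to 510 genes at day 3 (most without replicate 1 of CAP), 311 to 1483 at day 6, 382 to 886 for the days in CAP wounds and 657 to 1777 for the change of the effect (each fewest without replicate 2 and most without replicate 3 of CAP at day 6). For the mean effect it gave 1 to 2 members. For CAP against sham at day 6, 1430 genes had an adjusted p under 0.05 by limma without replicate 3 of CAP, against 0 with all libraries. No member was past the threshold at day 6 with any library left out. Members under the threshold that turned sign ranged at day 3 from -0.495 to 0.0343 (Cd3d), -0.183 to 0.0945 (Cd3e) and -0.601 to 0.068 (Cd4), and at day 6 from -0.12 to 0.271 (Cd3d), -0.448 to 0.506 (Gzma) and -0.0679 to 0.302 (Prf1). Between days in sham the ranges were -0.145 to 0.384 (Cd3d), -0.313 to 0.0977 (Nkg7) and -0.226 to 0.192 (Klrd1). For the mean effect they were -0.22 to 0.0448 (Cd3d) and -0.138 to 0.11 (Nkg7), and for its change -0.564 to 0.233 (Cd4).

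The replicate numbers are shared between groups. Same-numbered libraries deviated from their group means with r of -0.17 to 0.29, not above 0.1 for every pair of any 2 groups, so the numbers were not taken as a pairing. With the replicate block, 298 genes passed at day 3, 725 at day 6, 709 and 548 for the days in sham and CAP wounds, 371 for the mean effect and 1013 for its change, and no count of members changed.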
